A study of Homo sapiens with 16 samples.

Results

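Interferon-stimulated genes are the genes that cells switch on when interferon reaches them, and IRF genes encode the interferon regulatory factors, transcription factors that act in that response. The set described here holds 10 genes, taken by their symbols from the deposited tables: IFIT1, IFIT2, IFIT3, IFIT5, IFI27, IFI44L, IRF1, IRF7, USP18 and ISG15. They are 10 of the 57500 genes in the files. Of the set, 9 genes passed the filter on low counts and stand among the 17306 genes tested, and IFIT2 did not pass. RNA of HEK293T was sequenced, an immortalised line from human embryonic kidney. Each of the 4 groups held 4 libraries. E92K cells carried a lentivector for histone H2A(E92K), which has a lysine in place of an acidic-patch glutamate, and received DMSO. JQ1 cells carried a lentivector for unmutated H2A and received 1 µM JQ1, a compound that releases BET bromodomain proteins from acetylated chromatin, for 3 h. Pinometostat cells carried the same H2A lentivector and received 2.5 µM pinometostat, an inhibitor of the histone methyltransferase DOT1L, for 24 h. H2A cells with DMSO served as the control of all 3 comparisons, and their labels state no time in DMSO, so a difference in time or handling cannot be told apart from the agent. All groups shared the line and its SV40 large T antigen. The labels name no promoter for the vector and are silent on whether the libraries of a group are separate cultures, so the p-values speak for the spread of these libraries, which could be technical alone.

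Interferons are secreted proteins that bind paired receptors on the cell surface. The receptors activate JAK kinases, which phosphorylate STAT proteins, and some of these join IRF9 in a complex that binds the interferon-stimulated response element (ISRE) of target genes. Interferon gamma instead acts through the gamma-activated site (GAS), for which IRF1 is a textbook target. IRF family proteins recognise ISRE-like sequences as well, so some target genes can be transcribed at a basal level without added interferon. Textbook effectors among the targets include the IFIT proteins, which bind foreign RNA, and ISG15, a ubiquitin-like protein that is attached to other proteins.

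Promoter windows of 300 bases, from 250 bases before the annotated start to 50 after it, came from RefSeq (GRCh38.p14) and were found for 7 of the 10 genes, with 9 windows in all. Windows of 6 genes are printed as a description, and no result rests on them. Of these genes IFIT5, IFIT1 and IRF1 were lower with JQ1, IFI27 was higher, and IFIT3 and ISG15 did not pass. Each printed window is given 5′ to 3′ on the strand of the gene. Capitals mark the ISRE core GAAANNGAA or the GAS core TTCNNNGAA, either in those letters or in their reverse complement.
IFIT5 (chr10:89414318-89414617, plus strand): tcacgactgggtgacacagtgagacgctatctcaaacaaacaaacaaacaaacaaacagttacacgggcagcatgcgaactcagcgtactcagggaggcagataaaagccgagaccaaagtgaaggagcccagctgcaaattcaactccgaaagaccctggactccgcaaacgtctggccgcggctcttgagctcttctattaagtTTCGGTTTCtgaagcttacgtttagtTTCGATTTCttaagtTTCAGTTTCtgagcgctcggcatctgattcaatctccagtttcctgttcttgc
IFIT1 (chr10:89392373-89392672, plus strand): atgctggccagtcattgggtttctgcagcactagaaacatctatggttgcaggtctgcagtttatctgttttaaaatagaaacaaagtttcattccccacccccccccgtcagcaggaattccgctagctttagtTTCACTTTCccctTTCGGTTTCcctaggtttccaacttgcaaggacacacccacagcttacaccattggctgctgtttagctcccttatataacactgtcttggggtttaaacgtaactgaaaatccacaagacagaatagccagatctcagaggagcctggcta
IFIT3 (chr10:89327747-89328046, plus strand): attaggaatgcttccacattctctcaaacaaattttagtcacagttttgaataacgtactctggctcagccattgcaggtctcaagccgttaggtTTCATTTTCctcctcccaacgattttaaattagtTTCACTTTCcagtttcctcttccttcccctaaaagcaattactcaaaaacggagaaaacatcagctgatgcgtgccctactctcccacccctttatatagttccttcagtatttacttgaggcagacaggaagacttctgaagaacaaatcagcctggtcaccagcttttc
ISG15 (chr1:1013247-1013546, plus strand): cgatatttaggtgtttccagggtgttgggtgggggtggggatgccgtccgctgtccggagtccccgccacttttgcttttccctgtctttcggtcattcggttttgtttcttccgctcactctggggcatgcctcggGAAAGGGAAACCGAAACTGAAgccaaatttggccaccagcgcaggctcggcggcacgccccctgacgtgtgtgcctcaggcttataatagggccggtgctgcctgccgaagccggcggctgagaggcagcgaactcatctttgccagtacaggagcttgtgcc
IFI27 (chr14:94110486-94110785, plus strand): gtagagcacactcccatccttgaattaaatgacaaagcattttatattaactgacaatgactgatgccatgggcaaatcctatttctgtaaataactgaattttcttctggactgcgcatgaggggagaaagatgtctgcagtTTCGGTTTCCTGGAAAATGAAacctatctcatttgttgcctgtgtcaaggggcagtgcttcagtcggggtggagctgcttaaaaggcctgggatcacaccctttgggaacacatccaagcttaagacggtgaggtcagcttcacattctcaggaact
IRF1 (chr5:132490724-132491023, minus strand): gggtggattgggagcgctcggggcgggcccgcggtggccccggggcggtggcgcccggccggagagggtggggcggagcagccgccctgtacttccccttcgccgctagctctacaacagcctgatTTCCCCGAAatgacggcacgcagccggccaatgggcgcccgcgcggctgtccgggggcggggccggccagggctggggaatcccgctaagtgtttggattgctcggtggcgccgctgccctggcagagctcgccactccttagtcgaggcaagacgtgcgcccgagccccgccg
The ISRE core stood in the windows of 6 of the 7 genes. IFIT5 held 3, whose first bases lie 44, 18 and 3 bases before its start, and ISG15 held 3, each overlapping the next. IFIT1, IFIT3, IFI27 and IFI44L held 2 each in the first window of each gene. IRF1 held no ISRE core and had 1 GAS core that begins 124 bases before its start. The GAS core of IFI27 overlaps both of its ISRE cores. Of 35116 RefSeq promoter windows of the same length, 8.11% held at least 1 ISRE core, 0.701% held 2 or more and 0.0883% held 3 or more, and 7.66% held a GAS core. A match describes letters only, and these genes were listed as interferon targets, so the matches are no independent result. ISRE cores were present both in genes that fell with JQ1 (IFIT1, IFIT5) and in a gene that rose (IFI27).

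Total counts ran from 17779692 to 27599686 per library. A pair of libraries stood apart in the share of counts on the mitochondrial genome, which was 16.5% in JQ1 replicate 1, where the JQ1 group otherwise had 3.69% at most. E92K replicate 4 had 7.45%. Embryonic kidney and neurofilament genes that mark HEK293T were present: 6 of 6 passed the filter, and their summed level was 307.0 to 404.5 CPM, counts scaled to library size, in E92K, 440.7 to 724.8 with JQ1, 222.8 to 313.9 with pinometostat and 308.4 to 430.5 in H2A with DMSO. With JQ1, 4 of these 6 fell and 1 rose, with a median log2 fold change of -0.45. The leukocyte gene PTPRC had 0 to 2 counts in any library. In bulk RNA, fewer cells with a transcript and less of it per cell cannot be told apart.

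Transcripts of the interferons themselves were close to absent. Of 21 interferon ligand genes 13 had 0 counts in all 16 libraries, among them IFNB1, and none passed the filter. The highest count was 5 in a library, for IFNE, and the ligands together gave 0 to 6 counts in any E92K library, 0 to 2 with JQ1, 0 to 2 with pinometostat and 0 to 4 in H2A with DMSO. The labels add no interferon to these cells, so the levels of the 10 genes are those without added interferon. Whether the pathway was at rest was not tested, since no group with interferon or without a lentivector stands beside them. Per length, in TPM, counts scaled to exonic length and library size, of H2A cells with DMSO, USP18 (25.3 ± 1.45, SD, n = 4) and ISG15 (18.3 ± 2.80) were highest, followed by IFIT5 (11.2 ± 0.727), IFIT1 (6.43 ± 0.619) and IRF1 (2.65 ± 0.331). IFI27 (0.820 ± 0.175), IFIT3 (0.699 ± 0.0903) and IRF7 (0.67 ± 0.207) lay below 1 TPM, with IFI44L (0.328 ± 0.0729) and IFIT2 (0.175 ± 0.156) lowest. In that order the ranges of neighbours overlapped for IFI27 and IFIT3, for IFIT3 and IRF7, and for IFI44L and IFIT2. All other neighbours were apart in their 4 libraries. The plot of levels shows every library.

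**Figure D1:**
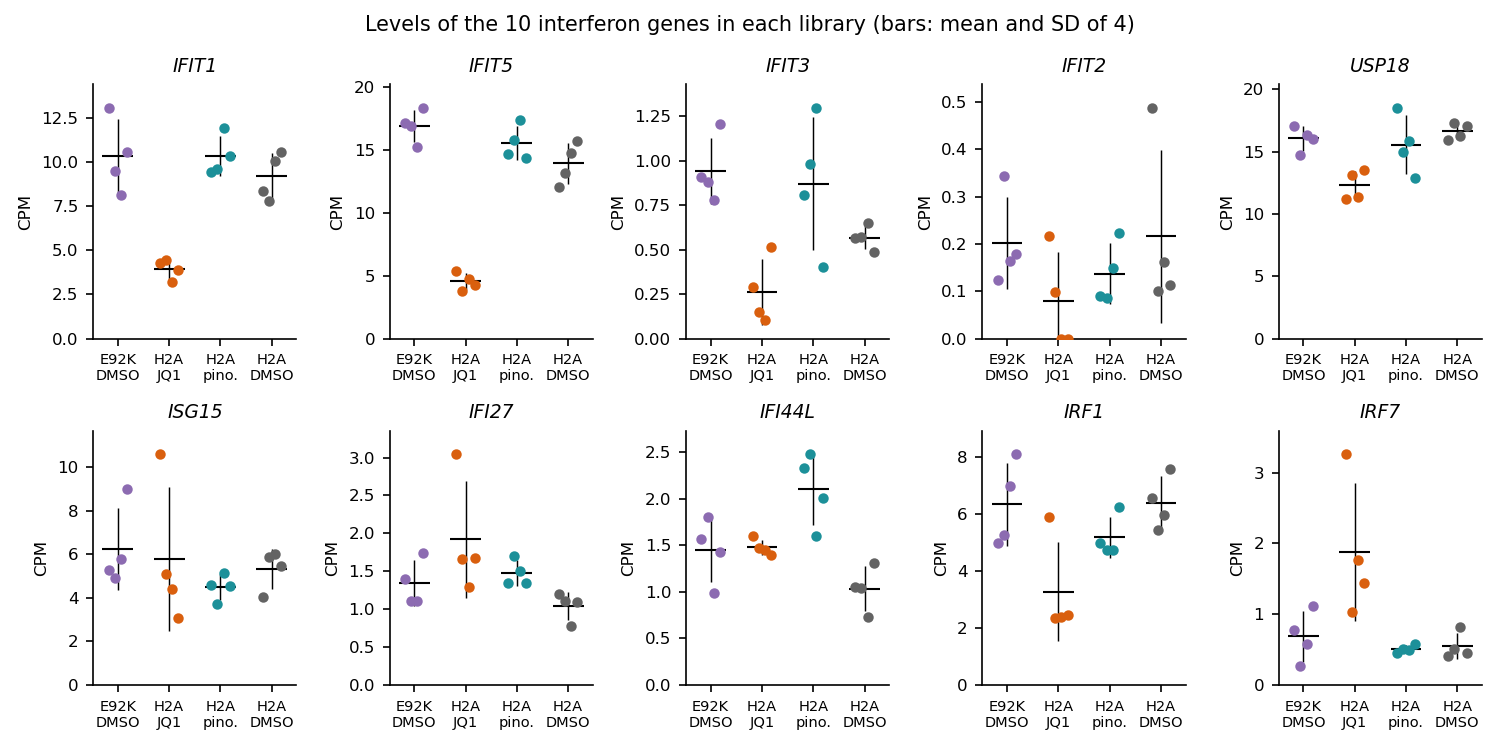
Level in CPM (library sizes scaled by TMM, linear axis that starts at 0) of the 10 genes in each of 16 libraries, with the group mean as a horizontal line and the SD (n = 4) as a vertical one. IFIT1 and IFIT5 with JQ1 lie below every other library, IFI44L is highest with pinometostat, and JQ1 replicate 1, drawn leftmost in its group, stands above the other JQ1 libraries for ISG15, IFI27, IRF1 and IRF7.

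With JQ1 the set split into genes that fell and genes that rose. Of the 9 genes tested, 4 fell, namely IFIT5, IFIT1, IRF1 and USP18, and 2 rose, IRF7 and IFI27 (quasi-likelihood test of edgeR, adjusted p below 0.05 by Benjamini-Hochberg over 17306 genes). Over all genes tested 17.6% passed with JQ1, 1239 higher and 1805 lower. The higher share of these calls was 40.7%, and it was 14.3% with library size alone and 27.4% with upper quartile scaling, so directions here are relative to TMM scaling. The 6 genes called with JQ1 kept their direction under each scaling. IFI27 did not pass with library size alone or with upper quartile scaling (edgeR adjusted p = 0.0735 and 0.0552), which left 5 called. The median log2 fold change of the 9 genes was -0.43, beside 0.042 over all genes. With pinometostat IFI44L alone rose and none of the 9 fell, where 8.2% of all genes passed (44.1% of them higher, 32.6% with library size alone and 57.2% with upper quartile scaling), and the median of the 9 was 0.16 beside 0.026. With E92K none of the 9 passed by edgeR, DESeq2 or limma-voom, and 1 had an unadjusted p below 0.05. The share passing over all genes was 0% with E92K by edgeR, with 1296 genes at an unadjusted p below 0.05, 4 called by DESeq2 and 0 by limma-voom. The 3 comparisons share the same 4 control libraries, so their values are not independent of each other.

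**Figure D2:**
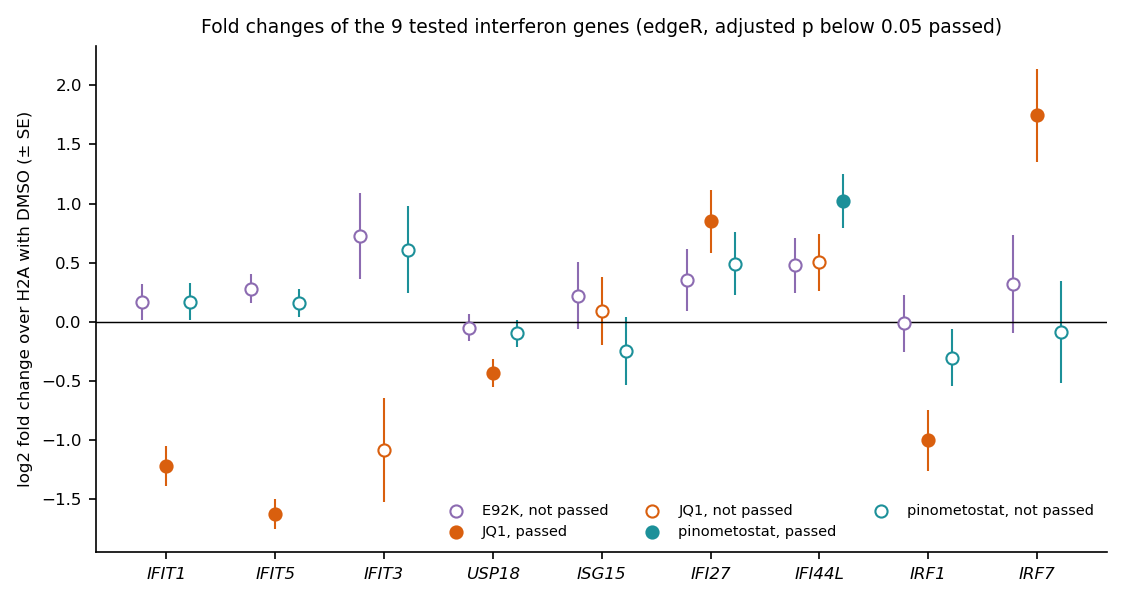
Log2 fold change (± SE, edgeR, n = 4 per group) of the 9 tested genes for E92K, JQ1 and pinometostat, each over H2A with DMSO. Filled points have an adjusted p below 0.05: IFIT1, IFIT5, USP18 and IRF1 below 0 and IFI27 and IRF7 above 0 with JQ1, and IFI44L above 0 with pinometostat.

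The IFIT genes encode RNA-binding effectors of the antiviral state and lie side by side on chromosome 10. IFIT5, which binds single-stranded RNA with a triphosphate end, showed the smallest adjusted p of the set with JQ1. IFIT5 (ENSG00000152778, chr10:89414586-89421001, GRCh38, plus strand, protein-coding) had 5.37, 3.81, 4.71 and 4.24 CPM in the JQ1 libraries, against 12.05, 13.2, 14.7 and 15.7 CPM in H2A with DMSO. Every JQ1 library lay under every control library. The log2 fold change was -1.625 ± 0.13, a level 3.08-fold lower (edgeR adjusted p = 2.30e-07). In E92K cells IFIT5 had 17.1, 16.9, 15.2 and 18.3 CPM, where 3 of 4 libraries exceeded the highest control, and the log2 fold change of 0.28 ± 0.12 did not pass (edgeR adjusted p = 0.656). With pinometostat it had 14.7, 15.8, 17.35 and 14.3 CPM and a log2 fold change of 0.16 ± 0.12 (edgeR adjusted p = 0.438), and the groups overlapped.

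IFIT1, which binds messenger RNA whose cap lacks the ribose methyl mark of host transcripts, was lower with JQ1 as well. IFIT1 (ENSG00000185745, chr10:89392546-89406486, plus strand, protein-coding) had 4.28, 4.44, 3.21 and 3.87 CPM with JQ1, against 8.37, 7.78, 10.1 and 10.55 CPM in H2A with DMSO. The groups did not overlap, and the log2 fold change was -1.22 ± 0.17, a level 2.33-fold lower (edgeR adjusted p = 5.08e-05). E92K libraries held 13.1, 9.52, 8.11 and 10.6 CPM and pinometostat libraries held 9.44, 9.61, 11.95 and 10.4 CPM, and both groups overlapped with the controls. Their log2 fold changes were 0.17 ± 0.155 (edgeR adjusted p = 0.752) and 0.17 ± 0.155 (edgeR adjusted p = 0.528). The falls of IFIT1 and IFIT5 with JQ1 passed under every alternative setting tried, 29 for each gene, with log2 fold changes between -1.47 and -1.12 for IFIT1 and between -1.88 and -1.55 for IFIT5.

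IFIT3, a partner that binds and stabilises IFIT1, was scarce, with 2 to 27 counts per library. IFIT3 (ENSG00000119917, chr10:89327894-89340971, plus strand) had 0.2901, 0.1465, 0.1035 and 0.513 CPM with JQ1, against 0.563, 0.573, 0.651 and 0.488 CPM in H2A with DMSO. JQ1 replicate 4 lay within the control range and the other 3 below it, and the log2 fold change of -1.08 ± 0.44 did not pass (edgeR adjusted p = 0.0999). Without JQ1 replicate 4 the value was -1.70 with an edgeR adjusted p of 0.0227, and limma on log2(TPM + 1) and log2(TPM + 0.1) gave -0.43 and -1.27 on those scales with adjusted p of 0.0432 and 0.0182. E92K cells had 0.908, 0.879, 0.779 and 1.21 CPM, each library above every control library, yet the log2 fold change of 0.72 ± 0.36 did not pass (edgeR adjusted p = 0.656). IFIT3 was the only gene of the set whose E92K and control groups were apart. The share of all tested genes with these groups apart was not counted, so no result is read from it. With pinometostat it had 0.806, 0.982, 1.3 and 0.402 CPM, on both sides of the controls (log2 fold change 0.61 ± 0.37, edgeR adjusted p = 0.314).

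IFIT2, another member of the family, was at the limit of detection and was not tested. IFIT2 (ENSG00000119922, chr10:89283694-89309276, plus strand) had 3, 9, 4 and 4 counts in E92K, 3, 2, 0 and 0 with JQ1, 2, 2, 3 and 5 with pinometostat and 13, 3, 4 and 3 in H2A with DMSO. A count of 0 allows up to 0.155 and 0.140 CPM in the 2 JQ1 libraries concerned (3 counts of the scaled total, counting error only), so a difference was not detectable at this depth. With no filter, the log2 fold change with JQ1 was -1.62 (edgeR adjusted p = 0.308). A share of 6.88% of the 75-base runs in its exons also occurs in the overlapping gene AL353751.1, so its counts are uncertain.

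The tested neighbours of the IFIT genes that are not IFIT genes did not pass with JQ1. LIPA, a lysosomal lipase gene on the opposite strand whose annotated span overlaps IFIT2, IFIT3 and IFIT1 and ends 29 bases before IFIT5, had a mean of 91.8 ± 32.1 CPM with JQ1 and 94.3 ± 7.09 CPM in H2A with DMSO (SD, n = 4 each). Its log2 fold change was -0.037 ± 0.24 (edgeR adjusted p = 0.939). SLC16A12, a transporter gene 9298 bases beyond IFIT5 on the opposite strand, gave -0.26 ± 0.46 (edgeR adjusted p = 0.75). The strand setting of the counting is not given in the sources used here, so reads of LIPA and of the IFIT genes it overlaps may not be told apart, and the difference between the neighbours and the IFIT genes was not tested. No 75-base run of the transcripts of IFIT1, IFIT3 or IFIT5 occurs in the same orientation in a transcript of another gene. Reverse complements were not searched, so sequence shared with LIPA on the opposite strand could not be found this way.

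**Figure D3:**
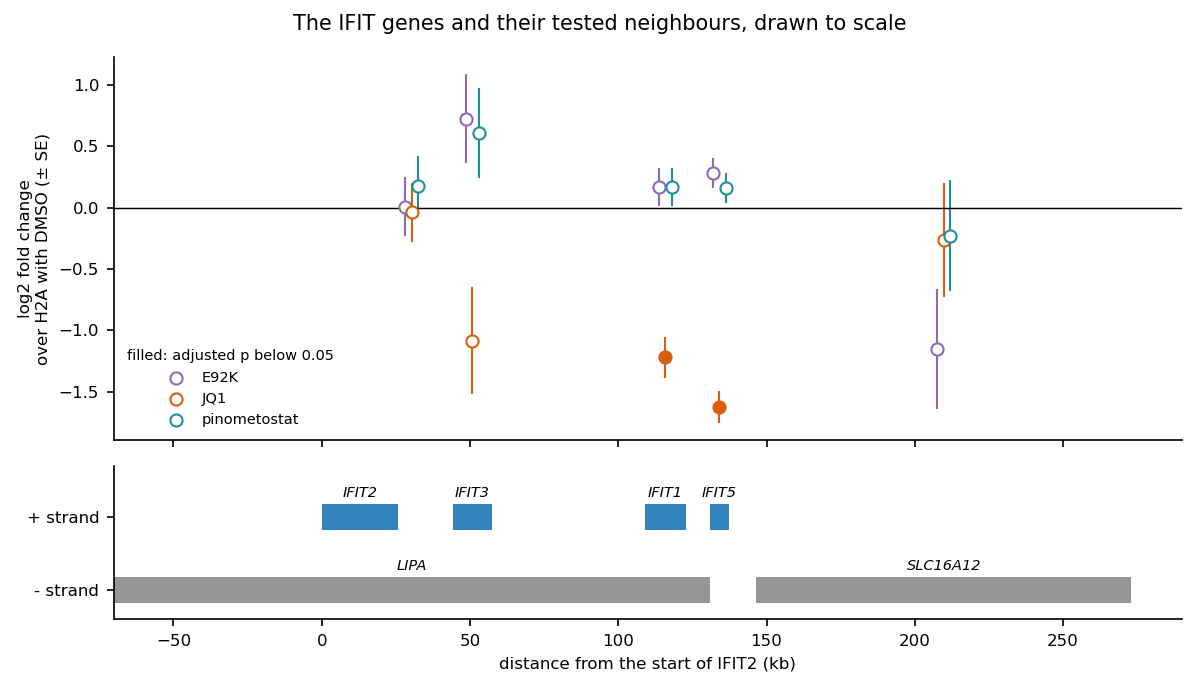
Log2 fold change over H2A with DMSO (± SE, edgeR, n = 4 per group) of the tested genes around the IFIT cluster, placed at the middle of each gene, above a scale map of the genes in kilobases from the start of IFIT2. The filled points, IFIT1 at -1.22 and IFIT5 at -1.625, are those with JQ1, while LIPA and SLC16A12 did not pass in any of the 3 comparisons.

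USP18 and ISG15 belong to a single pathway: ISG15 is conjugated to target proteins, and USP18 removes it and also restrains signalling at the type I interferon receptor. USP18 (ENSG00000184979, chr22:18149899-18177397, plus strand) had 11.2, 13.1, 11.4 and 13.5 CPM with JQ1, against 15.9, 17.3, 16.3 and 17.05 CPM in H2A with DMSO. The groups did not overlap, and the log2 fold change of -0.43 ± 0.12 was the smallest that passed in the set (edgeR adjusted p = 0.0143). At the threshold of 0.05 it passed under all of 29 alternative fits but 1, since without JQ1 replicate 3 it was -0.39 with an edgeR adjusted p of 0.0508. In the main fit USP18 did not pass the stricter threshold of 0.01. E92K libraries had 17.1, 14.8, 16.35 and 16.01 CPM (log2 fold change -0.051 ± 0.11, edgeR adjusted p = 0.902). Pinometostat libraries spread more widely, at 18.5, 14.99, 15.85 and 12.9 CPM, and did not differ past the threshold (log2 fold change -0.10 ± 0.11, edgeR adjusted p = 0.636). USP18 is uncertain because 18.3% of its exonic 75-base runs occur also in its copy USP41.

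ISG15 (ENSG00000187608, chr1:1001138-1014541, plus strand) had 10.6, 5.08, 4.4 and 3.08 CPM with JQ1, against 4.02, 5.86, 6.02 and 5.445 CPM in H2A with DMSO. The highest value, in JQ1 replicate 1, and the lowest, in JQ1 replicate 4, lay on either side of the control range. The log2 fold change of 0.091 ± 0.29 did not pass (edgeR adjusted p = 0.868) and had no stable direction: without JQ1 replicate 1 it was -0.38 with an edgeR adjusted p of 0.250. E92K replicate 4, the library with the raised mitochondrial share in its group, was likewise the highest of 5.28, 4.89, 5.78 and 8.99 CPM (log2 fold change 0.22 ± 0.28, edgeR adjusted p = 0.821). With pinometostat the 4 values were 4.565, 3.715, 5.15 and 4.56 CPM, within or just under the control range (log2 fold change -0.25 ± 0.29, edgeR adjusted p = 0.627). The part of the mitochondrial share in these values was not tested beyond the fit that carries it as a covariate, which gave -0.33 for JQ1 (edgeR adjusted p = 0.187).

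IFI27 and IFI44L are strongly interferon-inducible in many tissues, and IFI27 encodes a small membrane protein found at mitochondria. IFI27 (ENSG00000165949, chr14:94104836-94116698, plus strand) had 3.05, 1.66, 1.29 and 1.68 CPM with JQ1, against 1.201, 1.11, 0.773 and 1.09 CPM in H2A with DMSO. All JQ1 libraries exceeded all controls, and the log2 fold change was 0.85 ± 0.26 (edgeR adjusted p = 0.0334). The call ended in 12 of 28 alternatives. Without JQ1 replicate 1, the highest library, the value was 0.53 with an edgeR adjusted p of 0.149. By TPM that library, at 1.23, lay within the 0.958 to 1.28 of the other JQ1 libraries. TPM ran low against CPM in that library: its IFIT1 was 1.56 TPM at 4.28 CPM, against 2.65 TPM at 3.87 CPM in JQ1 replicate 4. Pinometostat libraries had 1.34, 1.71, 1.5 and 1.34 CPM, all above the controls, but the log2 fold change of 0.49 ± 0.26 did not pass (edgeR adjusted p = 0.253). In E92K the values were 1.404, 1.11, 1.11 and 1.745 CPM (log2 fold change 0.35 ± 0.26, edgeR adjusted p = 0.706).

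IFI44L was the member that rose with pinometostat. IFI44L (ENSG00000137959, chr1:78619922-78646145, plus strand) had 2.33, 2.48, 1.6 and 2.01 CPM with pinometostat, against 1.05, 1.04, 0.732 and 1.31 CPM in H2A with DMSO. The groups were apart, with 18 to 58 counts behind each value, and the log2 fold change was 1.02 ± 0.23 (edgeR adjusted p = 0.0149). The call ended in 4 of 28 alternatives. These were limma on log2(TPM + 1) and log2(TPM + 0.1) (adjusted p = 0.0830 and 0.103) and the edgeR fits without H2A replicate 1 in DMSO or without pinometostat replicate 1 (adjusted p = 0.0549 and 0.0506). JQ1 libraries lay close together at 1.595, 1.465, 1.45 and 1.399 CPM, all above the controls, with a log2 fold change of 0.50 ± 0.24 that did not pass (edgeR adjusted p = 0.16). E92K libraries had 1.57, 1.797, 0.9835 and 1.43 CPM (log2 fold change 0.48 ± 0.23, edgeR adjusted p = 0.656). The direct contrast of E92K with pinometostat and that of JQ1 with pinometostat did not pass for IFI44L either.

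IRF1, which activates many ISRE-bearing genes, fell with JQ1. IRF1 (ENSG00000125347, chr5:132481609-132490798, minus strand) had 5.87, 2.34, 2.38 and 2.47 CPM with JQ1, against 6.57, 5.42, 5.98 and 7.585 CPM in H2A with DMSO. Replicate 1 lay within the control range, while the other 3 JQ1 libraries lay close together and below it. The log2 fold change was -1.002 ± 0.26 (edgeR adjusted p = 0.0109), and without replicate 1 it was -1.44. By TPM, replicate 1 had 1.26 and the others 0.895 to 1.00, all below the 2.33 to 2.98 of the controls. TPM ran low against CPM in JQ1 replicate 1, so its place depends on the scale. For IFIT1 it had 1.56 TPM at 4.28 CPM, where JQ1 replicate 4 had 2.65 TPM at 3.87 CPM. A fit of only the 8 libraries compared gave -1.02 with an edgeR adjusted p of 0.0504. In E92K, IRF1 had 4.995, 5.28, 6.97 and 8.097 CPM and a log2 fold change of -0.014 ± 0.24 (edgeR adjusted p = 0.989). With pinometostat the values were 4.97, 4.74, 4.75 and 6.26 CPM, 3 of them under the lowest control, and the log2 fold change of -0.30 ± 0.24 did not pass (edgeR adjusted p = 0.464).

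IRF7, the factor that amplifies transcription of the type I interferon genes, moved the other way with JQ1. IRF7 (ENSG00000185507, chr11:612553-615999, minus strand) had 3.26, 1.025, 1.76 and 1.45 CPM with JQ1, against 0.413, 0.505, 0.813 and 0.451 CPM in H2A with DMSO. All JQ1 libraries exceeded all controls, with 21 to 45 counts against 11 to 20. The log2 fold change was 1.75 ± 0.39, the largest rise of the set (edgeR adjusted p = 0.00449), and it passed under all 28 alternatives that gave a value, between 0.72 and 1.99. In E92K the values were 0.784, 0.268, 0.574 and 1.12 CPM, on both sides of the controls (log2 fold change 0.32 ± 0.41, edgeR adjusted p = 0.824). Pinometostat libraries had 0.4475, 0.512, 0.5001 and 0.581 CPM, all within the control range (log2 fold change -0.088 ± 0.43, edgeR adjusted p = 0.928). The interferon genes that IRF7 is known to activate stayed at the counts near 0 given above in every JQ1 library.

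The groups were also set directly against each other, although agent, dose and time all differ between them. In JQ1 minus pinometostat, 34.2% of all genes passed and 6 of the 9 did: IFIT5 at -1.78 ± 0.13, IFIT3 at -1.69 ± 0.43, IFIT1 at -1.39 ± 0.17, IRF1 at -0.70 ± 0.26 and USP18 at -0.34 ± 0.12 were lower with JQ1, and IRF7 at 1.84 ± 0.405 was higher (edgeR adjusted p between 7.84e-08 for IFIT5 and 0.0444 for IRF1). In JQ1 minus E92K, 22.9% of all genes passed, and the same 6 of the 9 passed in the same directions, with IFIT5 at -1.91 ± 0.13, IFIT3 at -1.81 ± 0.42 and IRF7 at 1.43 ± 0.39 (edgeR adjusted p = 5.12e-08, 0.00489 and 0.0125). IFIT3, which did not pass against the controls, thus passed against both other groups, where its levels were higher than in the controls by values that did not pass. The JQ1 and E92K values of IFIT3 were apart, and those with pinometostat overlapped with JQ1. In E92K minus pinometostat, 0.352% of all genes and 0 of the 9 passed by edgeR, with 1 of the 9 at an unadjusted p below 0.05.

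Genes of the pathway around the set were read from 6 lists of 110 genes, of which 84 were tested. With JQ1 17 of the 84 fell and 7 rose, which is 28.6% beside 17.6% of all genes, and their median log2 fold change was -0.043 beside 0.042 over all genes. By DESeq2 and by limma-voom 25 of the 84 passed with JQ1. With pinometostat 5 fell and 2 rose by edgeR, 8.33% of the 84 beside 8.2% of all genes, and 16 passed by DESeq2 and 7 by limma-voom. With E92K 0 of the 84 passed by edgeR, DESeq2 or limma-voom, and 7 had an unadjusted p below 0.05.

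Among the other IRF genes and their cofactors, 3 of 8 tested fell with JQ1 and 0 rose by edgeR, where 17.6% of all genes passed. Their median log2 fold change was -0.585. IRF2, an ISRE-binding factor often described as an antagonist of IRF1, had 2.49 ± 0.3885 CPM with JQ1 and 5.99 ± 0.557 CPM in H2A with DMSO (-1.26 ± 0.17, adjusted p = 5.84e-05, edgeR). IRF8, best known from myeloid cells, had 0.8702 to 3.88 CPM with JQ1 and 6.425 to 7.43 CPM in the controls (-1.29 ± 0.295, adjusted p = 0.00519, edgeR). IRF2BPL, an IRF2-binding protein relative, fell by 0.81 on the log2 scale (edgeR adjusted p = 0.00147). With pinometostat IRF2BP1, a corepressor that binds IRF2, was the 1 gene of the 8 that fell (-0.54 ± 0.14, adjusted p = 0.0248, edgeR), a call that ended in 5 of 29 alternatives. IRF3, the constitutive factor behind the first wave of interferon transcription, and IRF9 were chosen for mention after their values were seen. With JQ1 IRF3 averaged 70.1 ± 27.8 CPM and in H2A with DMSO 56.4 ± 4.62 CPM (log2 fold change 0.31 ± 0.19, adjusted p = 0.277, edgeR). IRF9 stayed low, at mean levels of 0.624 CPM in E92K, 0.644 with JQ1, 0.859 with pinometostat and 0.533 in the controls, and did not pass in any comparison. IRF4 and IRF5 had at most 6 and 7 counts in a library.

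Of 17 receptor and JAK-STAT genes 3 fell and 4 rose with JQ1, where 17.6% of all genes passed. IFNLR1, the ligand-binding chain of the interferon lambda receptor, had 1.715 ± 0.257 CPM with JQ1 and 7.01 ± 1.04 CPM in H2A with DMSO, the largest fall of any list (-2.015 ± 0.17, adjusted p = 4.19e-07, edgeR). IFNAR1, a chain of the type I receptor, fell less (-0.48 ± 0.09, adjusted p = 9.98e-04, edgeR). SOCS1, a feedback inhibitor of JAK kinases, rose (1.78 ± 0.41, adjusted p = 0.00508, edgeR), with 1.21 to 2.76 CPM in JQ1 libraries and 0.225 to 0.935 CPM in controls. PIAS1, a SUMO ligase, rose as well (0.48 ± 0.10, adjusted p = 0.00314, edgeR), a call that ended in 3 of 29 alternatives. STAT2, named after its values were seen, did not pass with JQ1, at 0.19 ± 0.15. With pinometostat 1 of the 17 fell, STAT3, a STAT of cytokine signalling (-0.46 ± 0.10, adjusted p = 0.0143, edgeR), and none rose, where 8.2% of all genes passed. The call of STAT3 ended in 3 of 29 alternatives.

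Of 13 sensors and adaptors tested, 2 fell and 1 rose with JQ1, where 17.6% of all genes passed. TICAM1, the adaptor of TLR3, had 1.27 ± 0.111 CPM with JQ1 and 3.87 ± 0.82 CPM in H2A with DMSO (-1.598 ± 0.21, adjusted p = 3.74e-05, edgeR). MYD88, the adaptor of most other Toll-like receptors, also fell (-1.003 ± 0.21, adjusted p = 0.00303, edgeR), and TANK, a scaffold of the TBK1 kinase, rose both with JQ1 (0.36 ± 0.12, adjusted p = 0.043, edgeR) and with pinometostat (0.45 ± 0.12, adjusted p = 0.0296, edgeR). The rise of TANK ended in 18 of 29 alternatives with JQ1 and in 11 of 29 with pinometostat. The DNA sensor CGAS had at most 4 counts in a library, and TLR7, TLR9 and ZBP1 at most 3. Of 5 enzymes of ISG15 conjugation, UBA7, the activating enzyme, rose with JQ1 (1.99 ± 0.53, adjusted p = 0.0138, edgeR), with 0.466 to 2.47 CPM in JQ1 libraries and 0.225 to 0.404 CPM in controls. None of the other 4 passed in any comparison by edgeR.

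Of 57 other interferon-stimulated genes 40 were tested, and 8 fell and 1, UBA7, rose with JQ1, where 17.6% of all genes passed. Among the falls, TRIM21, a cytosolic antibody receptor, had 1.64 ± 0.342 CPM with JQ1 and 5.14 ± 0.874 CPM in H2A with DMSO (-1.66 ± 0.17, adjusted p = 3.30e-06, edgeR). DTX3L, a ubiquitin ligase, fell by 1.22 on the log2 scale and PLSCR1, a scramblase family protein, by 0.52 (edgeR adjusted p = 3.55e-04 and 0.0031). With pinometostat 3 fell, LGALS3BP (-0.73 ± 0.135, adjusted p = 0.0071), SHISA5 (-0.37 ± 0.084, adjusted p = 0.0147) and PML (-0.54 ± 0.13, adjusted p = 0.0185, all edgeR), and 0 rose, and the calls of SHISA5 and PML ended in 3 and 6 of 29 alternatives. Several genes that interferon induces strongly elsewhere were next to silent in every group: MX1 had at most 9 counts in a library, IFI44 and RSAD2 at most 3, XAF1 at most 2, and OAS1 and OAS2 at most 1. Others of the list were well expressed, of which IFI6 and IFITM1 are named after their values were seen. IFI6 had 48.5 ± 12.7 TPM with JQ1 and 60.2 ± 4.54 TPM in H2A with DMSO, and IFITM1 had 56.6 ± 4.55 TPM with JQ1 and 70.2 ± 5.11 TPM in H2A with DMSO (SD, n = 4 each). In CPM, the scale of the tests, IFI6 averaged 15.4 with JQ1 and 16.1 in the controls, and IFITM1 averaged 23.9 and 23.4. On log2(TPM + 1) the median of all genes with JQ1 was -0.209, so a lower TPM with JQ1 was not particular to these genes. Which of the scales lies nearer to the true levels was not tested. Per length both stood above all 10 genes of the set in the controls, and neither passed in any of the 3 comparisons with the controls by edgeR. In the same libraries 5 genes of the set averaged over 5 CPM in H2A with DMSO: IFIT1, IFIT5, USP18, ISG15 and IRF1. Among 12 antigen presentation genes tested, TAP1, a peptide transporter, fell with JQ1 (-0.46 ± 0.12, adjusted p = 0.0111, edgeR) and PSMB10, an immunoproteasome subunit, rose (0.55 ± 0.17, adjusted p = 0.0335, edgeR), a call that ended in 12 of 29 alternatives. B2M, the light chain of MHC class I, rose with pinometostat (0.46 ± 0.12, adjusted p = 0.0273, edgeR), a call that ended in 9 of 29.

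**Figure D4:**
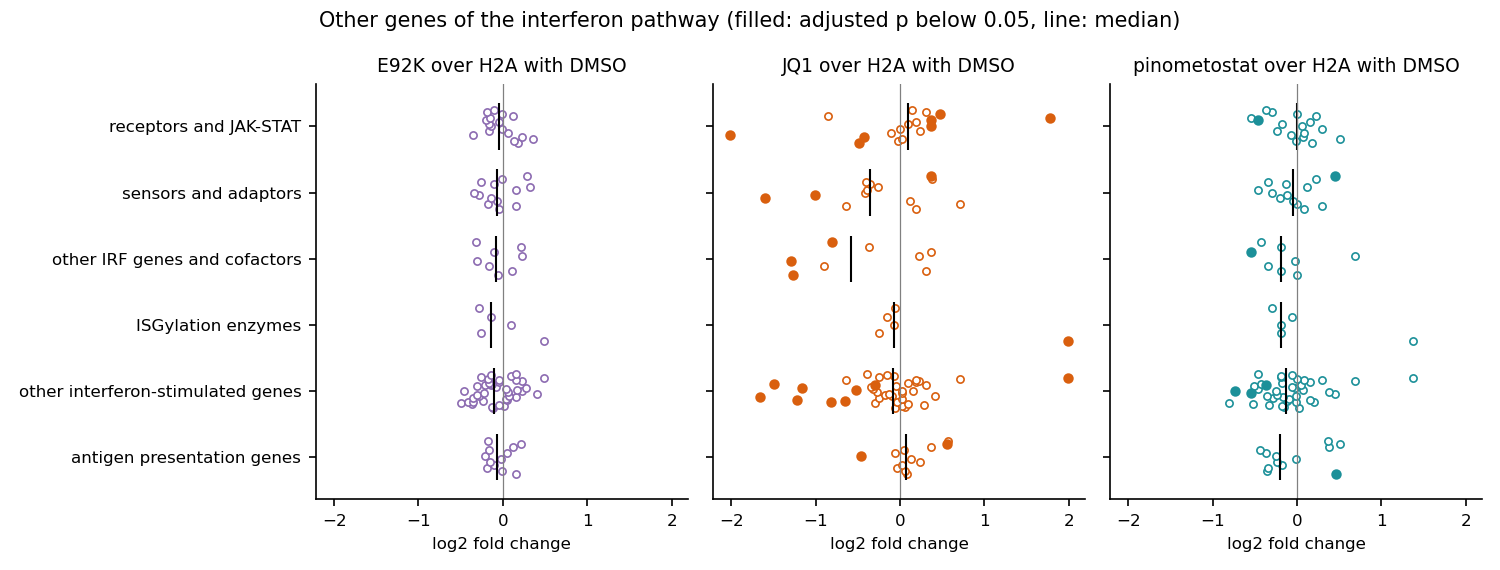
Log2 fold change over H2A with DMSO (edgeR, n = 4 per group) of the tested genes in 6 lists of the interferon pathway, with a panel each for E92K, JQ1 and pinometostat on the same axis. Filled points have an adjusted p below 0.05 and the black line is the list's median: 0 genes are filled with E92K, 24 different genes with JQ1 and 7 with pinometostat.

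Within 100 kb of the 10 genes lay 68 other genes, of which 41 were tested. With JQ1 6 of them rose and 3 fell, where 17.6% of all genes passed, so the count is near the background. Near IRF7 the Ras-association gene RASSF7 (0.80 ± 0.16, adjusted p = 0.00182), the dopamine receptor gene DRD4 (2.204 ± 0.63, adjusted p = 0.022) and AP006284.1 (1.49 ± 0.46, adjusted p = 0.0318, all edgeR) rose, while PHRF1, whose annotated end lies 331 bases from IRF7, did not pass (0.27 ± 0.18, adjusted p = 0.327). Without JQ1 replicate 1 the value of DRD4 was 0.86 (edgeR adjusted p = 0.168), and its level with JQ1 was 5.02 ± 6.14 CPM, against 1.05 ± 0.442 CPM in H2A with DMSO (SD, n = 4 each). Near ISG15 the Notch target HES4, 966 bases away (0.70 ± 0.22, adjusted p = 0.0393), NOC2L (0.41 ± 0.14, adjusted p = 0.0453) and AL645608.8 (0.99 ± 0.31, adjusted p = 0.0341, all edgeR) rose. The falls were OTUB2, a deubiquitinase gene near IFI27 (-1.41 ± 0.145, adjusted p = 3.21e-06), the carnitine transporter gene SLC22A5 near IRF1 (-0.60 ± 0.12, adjusted p = 0.00196) and the prostaglandin receptor gene PTGFR near IFI44L (-1.04 ± 0.33, adjusted p = 0.035, all edgeR). With pinometostat 0 of the 41 rose and 4 fell by edgeR: DDX24 near IFI27, DEAF1 near IRF7, and NOC2L and AGRN near ISG15, by 0.40 to 0.55 on the log2 scale, where 8.2% of all genes passed. These calls ended in 9, 2, 9 and 11 of 29 alternatives. Of the JQ1 calls, those of OTUB2 and SLC22A5 held under every alternative tried, and those of NOC2L, HES4, AL645608.8, AP006284.1 and RASSF7 ended in 21, 14, 12, 8 and 2 of 29. Those of DRD4 and PTGFR ended in 9 and 8 of 28. Leaving out JQ1 replicate 1 ended the calls of DRD4, NOC2L, HES4, AL645608.8 and AP006284.1, and leaving out JQ1 replicate 3 ended that of PTGFR.

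The genes whose pattern over the 16 libraries was most like that of 4 members were taken by Pearson's r of log2 CPM among 11493 genes with a symbol and a mean of at least 5 CPM. The libraries share groups and depth, so r is a description. For IFIT5 they were METTL18, a histidine methyltransferase gene (r = 0.991), LGALSL (r = 0.988) and PIGC, an enzyme of GPI anchor synthesis (r = 0.980). For IFIT1 they were PIGC (r = 0.969), LGALSL (r = 0.967) and PRKCQ-AS1 (r = 0.962). In all 4 of these genes the JQ1 libraries lay below every control library, as they did in IFIT1 and IFIT5: METTL18 averaged 3.24 ± 0.907 CPM with JQ1 and 13.3 ± 2.25 CPM in H2A with DMSO. Genes taken for likeness over these same libraries share a member's direction with JQ1 by choice, so these directions are no separate result. For IRF1 the closest were MARCH9 (r = 0.962) and the homeobox genes HOXC9 (r = 0.955) and EN1 (r = 0.943). For IRF7 they were ACAA1, a peroxisomal thiolase gene (r = 0.933), the circadian factor gene DBP (r = 0.922) and SLC26A6 (r = 0.915), all higher with JQ1. By Spearman's rho, or without JQ1 replicate 1 and E92K replicate 4, other genes entered the top 3 for each of the 4 members, while ACAA1 stayed first for IRF7, with IFNGR2, a chain of the interferon gamma receptor, first for IFIT5 by rho (0.962). Within the set, IFIT1 and IFIT5 had r = 0.955, IFIT3 had r = 0.803 with IFIT1 and 0.825 with IFIT5, and IRF7 had r = -0.718 with IFIT5. Without JQ1 replicate 1 and E92K replicate 4 (n = 14) these were 0.947, 0.783, 0.801 and -0.803.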

How the data were processed

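For each of the 16 libraries the authors deposited gene counts in whole numbers, and for the series a table of TPM values, per the file headers. The TPM values equal the deposited counts divided by exonic length and scaled to a fixed sum, within 5e-05. The strand setting, aligner and counter were not given in the sources used here. Coordinates are those in the files, and 96.3% of the genes also found in GENCODE release 29 (GRCh38) start and end there at the same bases. Groups follow the sample titles and treatment labels; the labels list no compound for the DMSO samples, and one protocol text gives pinometostat in millimolar, so the dose in the sample field was used.

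Counts were filtered with filterByExpr (minimum count 10, minimum total 15), scaled by TMM and tested by quasi-likelihood (edgeR 4.0.16, R 4.3.3) in a single fit of the 16 libraries that has 1 mean for each group and 12 residual degrees of freedom. Tests were two-sided with Benjamini-Hochberg adjustment over 17306 genes and a threshold of 0.05. An SE was taken as the absolute log2 fold change over the root of F. Log2 CPM used a prior count of 2. DESeq2 1.42.0 and limma 3.58.1 served as alternatives. A comparison of replicates found no pair within sampling noise (smallest chi-square per degree of freedom 3.77). Intervals of 0 counts cover counting error only. Motifs were searched on both strands. Figures used matplotlib 3.10.9.

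The members, lists and rule for named genes were chosen with earlier results of these data known. The rule named all 10 members, up to 4 genes per list and comparison with the smallest adjusted p, neighbours within 100 kb that passed, and the 3 genes most like IFIT1, IFIT5, IRF1 and IRF7. Any other gene is named as an example of a count or said to be chosen later. Some genes that the rule names are not reported here.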

Additional observations from a re-analysis of the deposited data

Results flagged for a closer look

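Within groups of 4, a library was marked where its gap to the nearest other library, divided by the group's range, exceeded Dixon's critical value for 4 samples. Of 40 groups checked, 3 held such a library, and chance marks about 1 in 20, which is 2. IRF1 in JQ1 replicate 1 had 5.87 CPM, beside 2.34 to 2.47 CPM in the other JQ1 libraries. That library also held the highest mitochondrial share, 16.5%, whose part in the value was not tested beyond the covariate fit. IRF1 in pinometostat replicate 4 had 6.26 CPM, beside 4.74 to 4.97 CPM in the other pinometostat libraries. IFIT2 in H2A with DMSO, replicate 1, had 0.488 CPM from 13 counts, beside 0.101 to 0.163 CPM from 3 or 4 counts in the other controls.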

How the results depend on the processing

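Depth limits IFIT2, IFIT3, IRF7, IFI27 and IFI44L most, since each had fewer than 60 counts in every library; a p that missed the threshold for them does not show equal levels. With E92K, where 0 of 17306 genes passed, DESeq2, the fit with no filter and the mitochondrial covariate each called 4, leaving out both JQ1 replicate 1 and E92K replicate 4 gave 3, and leaving out a single library gave 0 to 4. No member passed with E92K in any of these. With JQ1 the 3044 genes became 1872 with only the 8 libraries compared and 1560 at an adjusted p below 0.01, and 2216 to 3207 with a library left out. Members called with JQ1 went to 3 at 0.01, and were 5 to 7 with a library left out. With pinometostat the 1419 genes became 2348 by DESeq2, 4610 with only 8 libraries, 457 on log2(TPM + 1), 403 on log2(TPM + 0.1), 4449 with the mitochondrial covariate, 4782 without both libraries that stood apart and 182 at 0.01, and ran from 283, without H2A replicate 1 in DMSO, to 3701, without JQ1 replicate 1, when a library was left out. The 1 member, IFI44L, became 0 on both TPM scales, at 0.01, and with at least 50 counts in 4 libraries, a filter that removes it, and 0 to 1 with a library left out. The cause of these shifts was not tested.

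Values that did not pass changed sign as follows. IRF1 with E92K was 0.008 with upper quartile scaling and -0.171 to 0.084 with a library left out. Without both libraries that stood apart, IRF7 and ISG15 with E92K were -0.007 and -0.001, and with 1 library left out -0.031 to 0.593 and -0.025 to 0.322. ISG15 with JQ1 was -0.081 by limma-voom, -0.139 with library size alone, -0.298 on log2(TPM + 1), -0.315 on log2(TPM + 0.1), -0.332 with the covariate, -0.371 without both libraries and -0.381 to 0.316 with a library left out. IRF7 with pinometostat was -0.214 to 0.156 with a library left out. On the TPM scales the median of all genes with JQ1 shifted to -0.209 and -0.268.

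A fit with the replicate number as a block (replicate block) called 0 genes with E92K, 2363 with JQ1 and 534 with pinometostat, and 0, 6 and 1 members. Samples of the same number deviated together by r of -0.557 to 0.238, and 9 of 48 checks found a sample closest to its own number. No pairing by number was thus seen, which does not show that the samples are unpaired. Of the other named genes' values under alternatives, 204 no longer passed, 981 were on the same side of the threshold and 0 changed sign.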
